A study of Gallus gallus with 28 samples.

Results

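The glucose genes GAPDH, ENO1, FBP1 and GYS2 were followed in chicken liver, in a fat and a lean line of Gallus gallus. They were chosen by gene symbol in the platform annotation, and each stood on the array as 1 cDNA clone printed in 3 spots. These 4 clones, 12 spots in all, were among 206 clones with a gene symbol and 576 clones in all, and all 4 were among the 297 clones with enough values to test. The samples were 5 RNA pools of the fat line (pools 6 to 10) and 5 of the lean line (pools 1 to 5), each from the livers of 4 chickens. Pools 8 and 3 had 2 arrays and the other 8 pools had 3, which made 28 arrays. Arrays of 1 pool carried the same RNA and were counted as 1 sample, so n is pools. The labels give no age, sex, diet or selection history.

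Each value, as deposited, is read here as a log2 ratio of a liver pool (Cy5) to a common reference made from all 10 pools (Cy3). A value of 0 means the same signal in pool and reference, and a value of 1 means 2-fold more in the pool. The direction, pool over reference, is the likely reading of the channel order and is not stated. With the opposite direction the signs of all levels and line differences below would turn, and those of the correlations would not. Liver RNA is a mixture, so fewer cells of a type and less RNA per cell cannot be told apart. Of the hepatocyte markers 7 were on the array and 6 had values, ALB having none. Erythrocyte, leukocyte, stromal and adipocyte markers were on no named clone. Between 450 and 741 of 1728 spots had a value on an array, and the number of pools and arrays limits the precision. Array pairs of the same pool had a median Pearson r of 0.21 over 26 pairs, across clones, which are not independent replicates.

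Liver cells take up glucose and either burn it through glycolysis, store it as glycogen or turn it into fatty acids, and in birds the liver is the main site of fatty acid synthesis. Between meals the same cells break down glycogen and make new glucose from lactate, glycerol and amino acids. GAPDH and ENO1 serve glycolysis and gluconeogenesis alike. FBP1 catalyses a step that only gluconeogenesis uses, and GYS2 is the liver form of glycogen synthase.

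For none of the 4 genes was the difference between the lines larger than the spread between pools allowed the limma test to call, with p-values adjusted over all tested clones. GAPDH (0.80) and FBP1 (0.42) had a mean log2 ratio above that of the lean pools in the fat pools, and GYS2 (-0.40) and ENO1 (-0.14) had one below it. Of the 4 clones 0 passed the limma test at a Benjamini-Hochberg adjusted p under 0.05, as did 0 of the 297 clones tested (0%). At an unadjusted p under 0.05 there were 0 of 4, against 28 of 297 clones (9.43%), which were 5.05% of clones higher and 4.38% lower in the fat line. A difference above 0 was found in 2 of the 4 and in 54.9% of all clones tested, and in 0 of the 4 were the pools of the lines free of overlap, against 2.69% of all clones tested and 2.59% of those with values in all 10 pools.

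**Figure D1:**
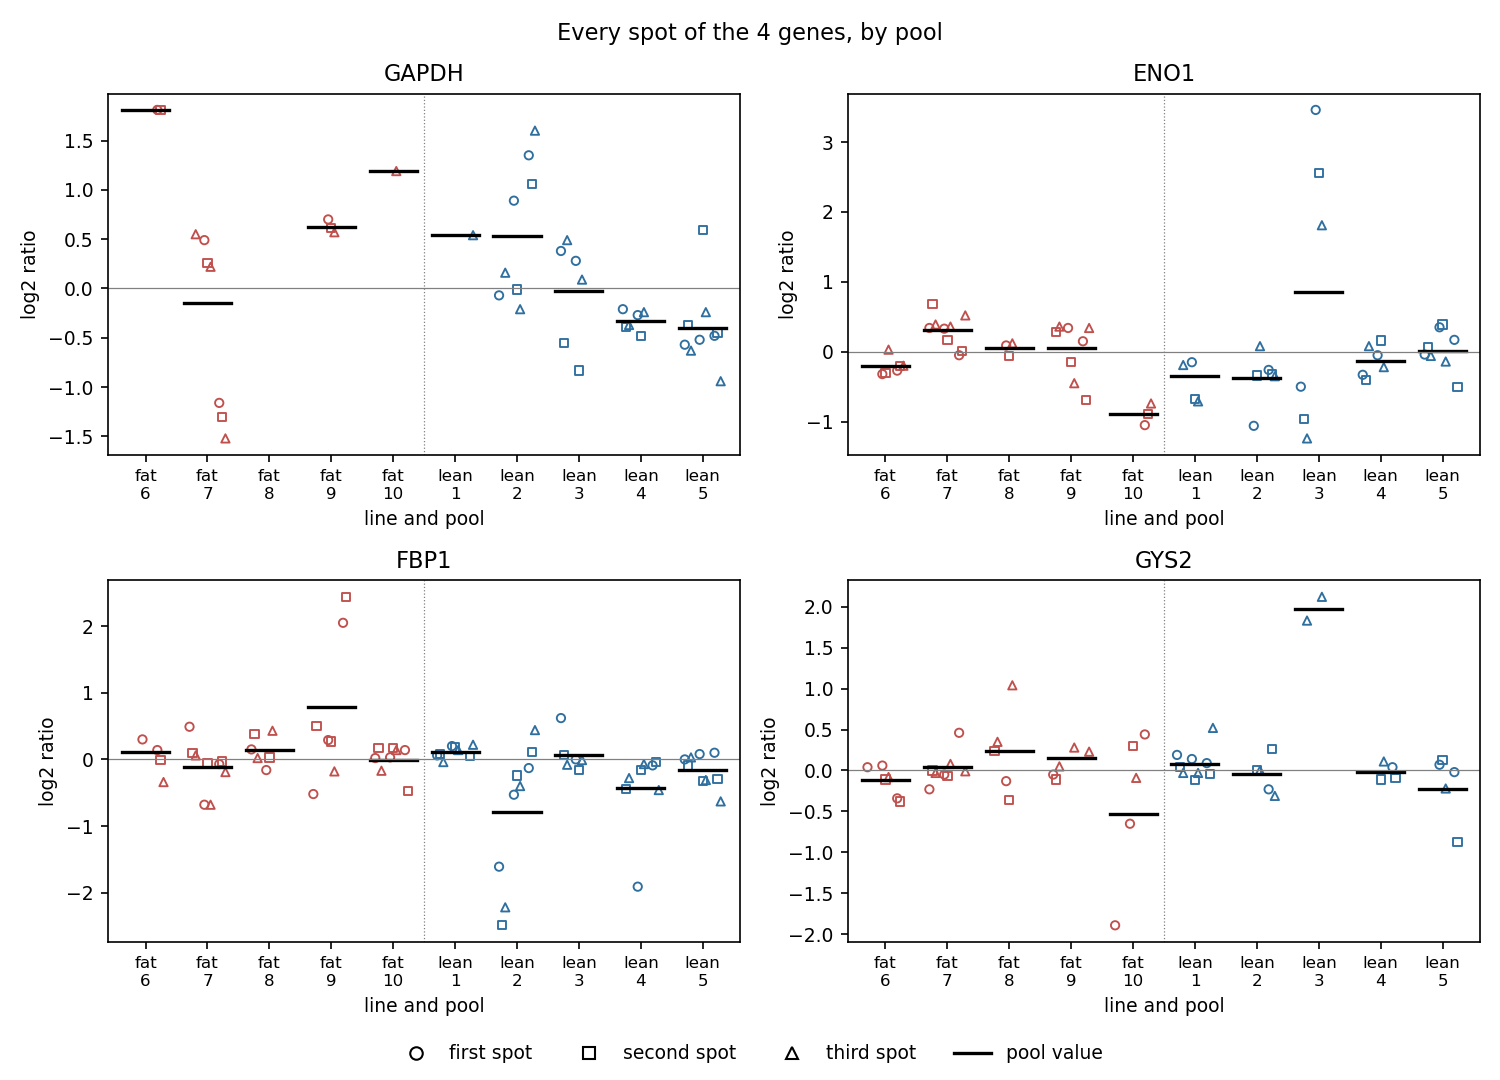
Log2 ratio of every spot of the 4 genes (vertical axis) by line and pool (horizontal axis), with the arrays of a pool side by side, spots as open symbols and the pool value as a black bar. Lean pool 3 stands apart for GYS2 at 1.98, and the same pool spans both sides of 0 for ENO1.

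GAPDH, glyceraldehyde-3-phosphate dehydrogenase, oxidises triose phosphate in the middle of glycolysis and is widely used as a reference gene for expression. Its clone lay in printing block 11, column 5, rows 3, 6 and 9. In fat pools 6, 7, 9 and 10 the log2 ratio was 1.81, -0.15, 0.63 and 1.19, and pool 8 had no value. In lean pools 1 to 5 it was 0.54, 0.54 (0.535), -0.02, -0.33 and -0.40. Thus 3 of the 4 fat pools lay above every lean pool, and the remaining one, pool 7, lay within the lean range.

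The mean of GAPDH was 0.87 ± 0.83 in the fat pools (SD, n = 4) and 0.06 ± 0.45 in the lean pools (SD, n = 5). The difference was 0.80 with a standard error of 0.39, or 1.75-fold with a 95% interval from 0.958 to 3.18. It did not pass the test (limma adjusted p = 0.530, unadjusted p = 0.0653). An exact two-sided permutation of the pools gave p = 0.119, or 0.599 after adjustment over all clones, with 0.00794 as the smallest p of the design. Without fat pool 6 the difference was 0.49.

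Few spots stood behind the GAPDH values of the fat line. Of 42 spots printed on the 14 arrays of a line, 13 (31.0%) had a value in the fat line and 30 (71.4%) in the lean line. Over all clones tested these shares were 69.9% in the fat line and 68.1% in the lean line. Fat pools 6, 9 and 10 each rested on 1 array, with 2, 3 and 1 spots, while fat pool 7 rested on 3 arrays. In the lean line pool 1 rested on a single spot and the other pools on 6 to 9 spots. No source used here gives the reason for an empty spot, and whether the missing spots bear on the difference was not tested.

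The 3 arrays of fat pool 7 gave GAPDH at 0.55, 0.32 and -1.33, so the same RNA lay on both sides of 0. The third of these arrays also had the fewest spots with a value of all 28 arrays, 450. Without that array the difference between lines was 0.95 (limma adjusted p = 0.340). In lean pool 2 the arrays ran from 0.05 (0.045) over 0.22 to 1.34. The SD of GAPDH was 0.64 between arrays of a pool (8 degrees of freedom) and 0.65 between the pool values of a line (7 degrees of freedom), each of which averaged 1 to 3 arrays.

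**Figure D2:**
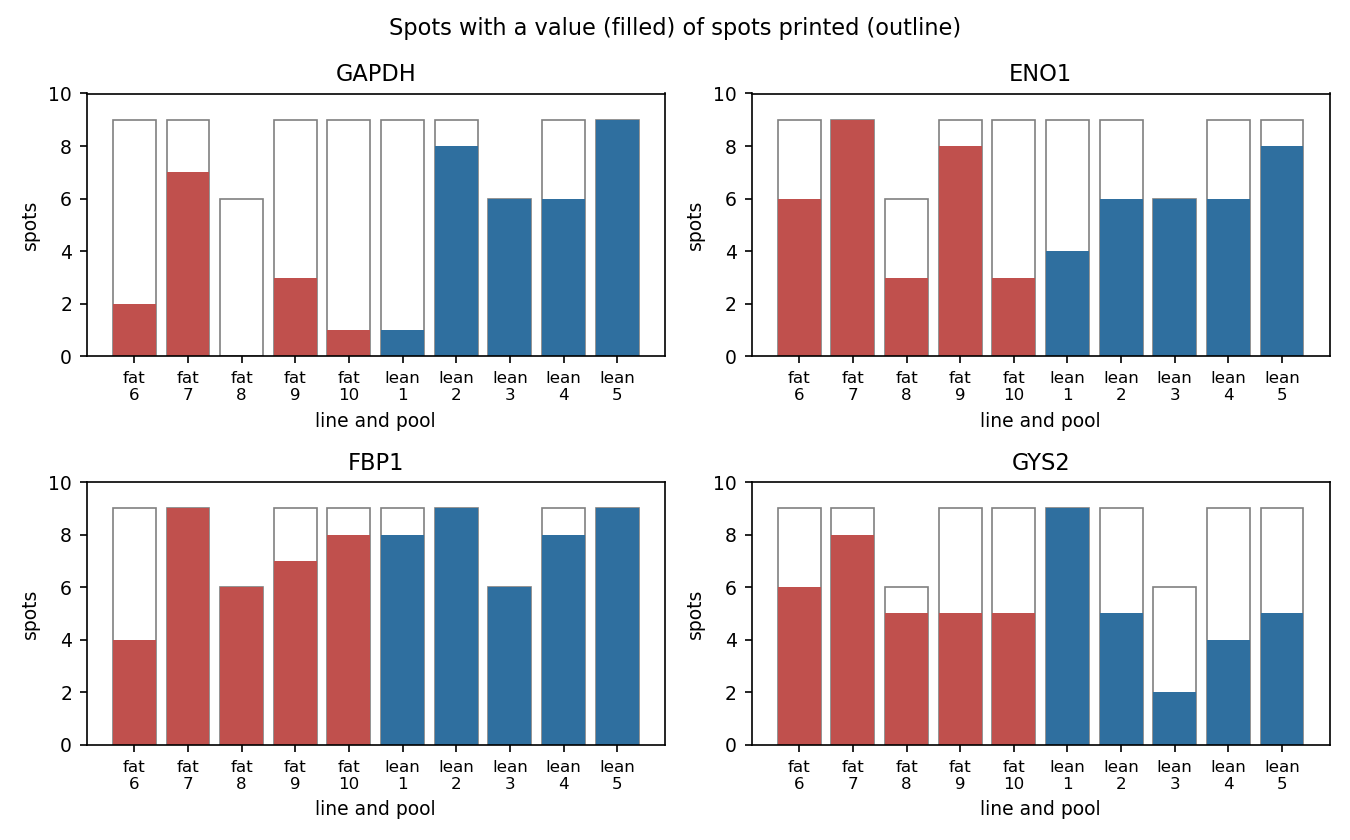
Number of spots with a value (filled bars) of the spots printed (outlines) for each gene, by line and pool. For GAPDH the fat pools had 0 to 7 filled spots and the lean pools 1 to 9.

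ENO1 is enolase 1, which makes phosphoenolpyruvate near the end of glycolysis. Its clone was printed in block 15, column 7, rows 3, 6 and 9. The log2 ratio was -0.21, 0.31, 0.05, 0.06 and -0.89 in fat pools 6 to 10, and -0.35, -0.38 (-0.375), 0.86 (0.855), -0.13 and 0.01 in lean pools 1 to 5. The lines overlapped throughout: the lowest pool was a fat one and the highest a lean one.

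The mean of ENO1 was -0.14 ± 0.46 in the fat pools and 0.00178 ± 0.503 in the lean pools (SD, n = 5 each). The difference of -0.14 had a standard error of 0.28 and a 95% interval from -0.76 to 0.48, and did not pass (limma adjusted p = 0.877, two-sided exact permutation p = 0.659). Its sign was not settled, at 0.07 without lean pool 3 and 0.05 (0.0485) without fat pool 10.

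Lean pool 3 was the highest of the 10 pools for ENO1, and its arrays lay on both sides of 0. Its first array gave -0.50, -0.96 and -1.24 in the 3 spots, and its second 3.46, 2.56 and 1.81. Within each array the 3 spots had the same sign. The second array had the widest spread of log2 ratios of all 28 (SD 1.25) and 6 values beyond 5 in either direction. Its r with the first array over the tested clones was -0.07. Without it ENO1 was at -0.90 in lean pool 3, and the difference between lines was 0.21 (limma adjusted p = 0.803). Fat pool 10, the lowest pool at -0.89, also rested on 1 array, whose 3 spots lay at -1.05, -0.89 and -0.74.

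FBP1, fructose-1,6-bisphosphatase, removes a phosphate from fructose bisphosphate on the way to new glucose. Its clone was printed in block 14, column 10, rows 2, 5 and 8. In fat pools 6 to 10 the log2 ratio was 0.12 (0.115), -0.12, 0.14, 0.79 and -0.015. In lean pools 1 to 5 it was 0.11, -0.79, 0.07, -0.42 and -0.16. All 5 fat pools lay above the lean mean, while the lines overlapped between -0.12 and 0.11.

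The mean of FBP1 was 0.18 ± 0.35 in the fat pools and -0.24 ± 0.37 in the lean pools (SD, n = 5 each). The difference was 0.42 with a standard error of 0.22, or 1.34-fold with a 95% interval from 0.953 to 1.87. It did not pass (limma adjusted p = 0.597, unadjusted p = 0.0852, two-sided exact permutation p = 0.111). FBP1 was the best filled of the 4 clones, with 34 of 42 spots in the fat line (81.0%) and 40 of 42 in the lean line (95.2%).

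Each line held 1 FBP1 pool set by 1 array. In fat pool 9 the third array had spots at 2.05 and 2.44, while the first and second arrays gave -0.01 and 0.13. In lean pool 2 the first array had spots at -1.61, -2.49 and -2.22, while the other arrays gave -0.39 and 0.14. The difference between lines was 0.27 without the third array of fat pool 9 and 0.29 without the first array of lean pool 2, and 0.27 without fat pool 9 and 0.28 without lean pool 2. With the median over arrays in place of the mean it was 0.20. It stayed above 0 in each of the 32 alternatives run.

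GYS2, the liver glycogen synthase, adds glucose units to glycogen. Its clone was printed in block 8, column 6, rows 2, 5 and 8. In fat pools 6 to 10 the log2 ratio was -0.12, 0.04, 0.24, 0.16 and -0.53. In lean pools 1 to 5 it was 0.08, -0.05, 1.98 (1.975), -0.01 and -0.23. Lean pool 3 lay far above every other pool, the next being fat pool 8, and the other 4 lean pools lay within the range of the fat pools.

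The mean of GYS2 was -0.04 ± 0.31 in the fat pools and 0.35 ± 0.91 in the lean pools (SD, n = 5 each). The difference of -0.40 had a standard error of 0.39 and a 95% interval from -1.26 to 0.46, and did not pass (limma adjusted p = 0.699, two-sided exact permutation p = 0.524). Without lean pool 3 the difference was 0.00719 with a standard error of 0.168, so its sign and size rested on that pool.

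**Figure D3:**
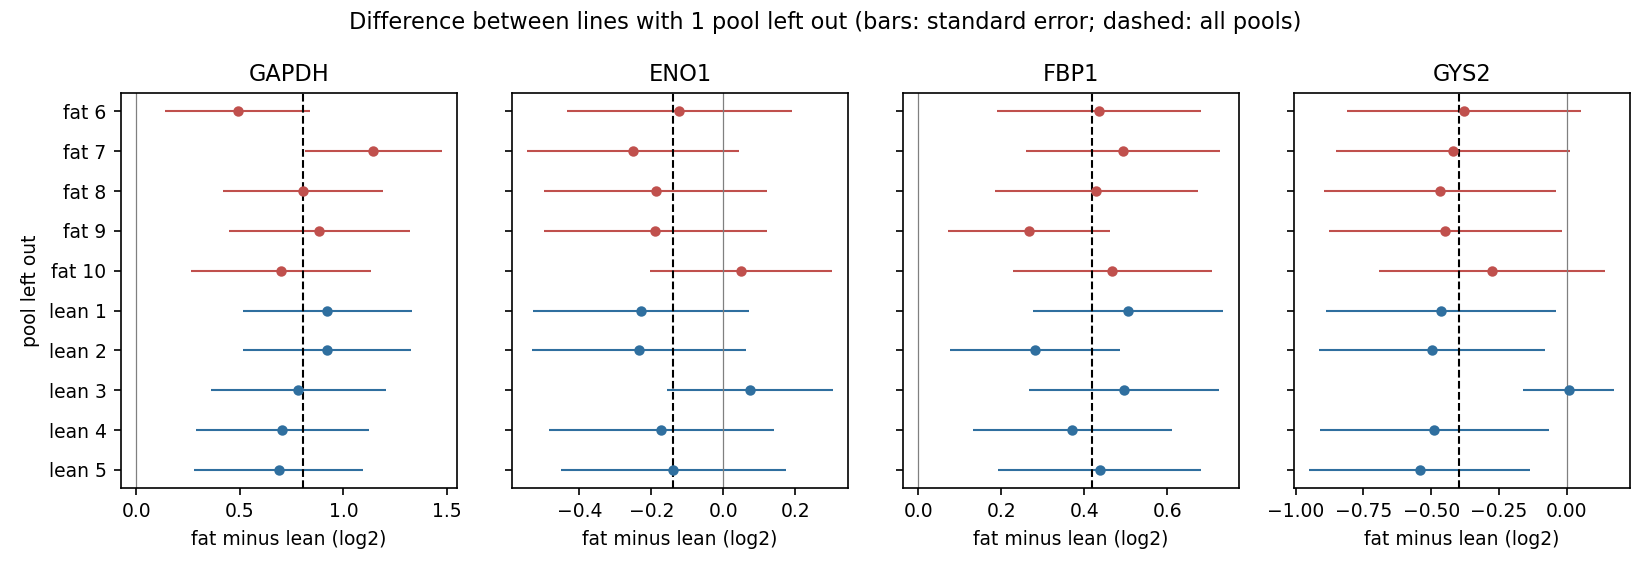
Fat minus lean difference on the log2 scale (horizontal axis, scaled per gene) with the pool named on the vertical axis left out, as points with their standard error, and the value with all pools as a dashed line. GYS2 moved to 0.00719 without lean pool 3, ENO1 changed sign without lean pool 3 or fat pool 10, and GAPDH and FBP1 stayed above 0.

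A second comparison set the pools of a line against each other, with the spread between arrays of a pool as the error. Those arrays repeat the same RNA, so a call says that a pool's value repeated on its arrays, and nothing of the spread between chickens. In the lean line GYS2 was called by the limma F test (adjusted p = 0.00255), the single call among 189 clones tested there (0.529%), with 30 at an unadjusted p under 0.05. FBP1 (adjusted p = 0.522) and ENO1 (adjusted p = 0.787) did not pass in the same limma F test, and GAPDH had too few arrays to enter it. In the fat line 0 of 202 clones passed (0%), with 46 at an unadjusted p under 0.05, and neither GYS2 (adjusted p = 0.681) nor FBP1 (adjusted p = 0.692) did by the limma F test. ENO1 and GAPDH were not tested in the fat line for lack of arrays. Without lean pool 3 GYS2 no longer passed among the lean pools (limma F test adjusted p = 0.839).

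The value of GYS2 in lean pool 3 came from 2 spots of 6. Only the third spot, row 8, had a value, at 1.83 on the first array and 2.12 on the second. The first and second spots were empty on both arrays. On the other lean arrays the third spot lay between -0.31 and 0.52, and on the fat arrays between -0.09 and 1.04. Both arrays of the pool therefore gave the same spot well above its range elsewhere. With at least 2 spots required per array, lean pool 3 had no GYS2 value, the clone could not enter the F test, and the difference between lines was 0.03.

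Lean pool 3 stood apart for other clones too. Of 245 clones with values in all 5 lean pools, 22 (8.98%) had 1 pool past the Dixon 95% value, and in 16 of these it was pool 3, above the rest in 8. In the fat line 23 of 254 clones (9.06%) had such a pool, with at most 7 for any 1 pool. GYS2 was among the 16 lean clones, and FBP1 was among the 23 fat clones with pool 9, which was the lone pool of 2. Pool 3 was the only lean pool with 2 arrays, and the r between them over the tested clones was -0.07. Its second array had the widest spread of log2 ratios of any array (SD 1.25), with 6 values beyond 5 in either direction. Fat pool 8, which also had 2 arrays, was the lone pool of 6 clones. Whether the 16 clones reflect the RNA of pool 3 or the spread of its arrays was not tested. Whether the part that pool 3 plays in other clones bears on GYS2 was not tested either.

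With all pools taken, spots of 1 array were closest to each other in all 4 genes. The SD between spots of an array was 0.35 for GAPDH, 0.34 for ENO1, 0.34 for FBP1 and 0.30 for GYS2, near the median of 0.32 over the clones tested. The SD between arrays of a pool was 0.64 for GAPDH, 0.77 for ENO1, 0.62 for FBP1 and 0.47 for GYS2, each above the median of 0.38. Between the pool values of a line, which are means over arrays, the SD was 0.65 for GAPDH, 0.48 for ENO1, 0.36 for FBP1 and 0.68 for GYS2. Lean pool 3 carried much of this spread in GYS2 and ENO1. Without it the SD between pools of GYS2 was 0.25, and the SD between arrays of ENO1 was 0.17. Each lay below the SD between spots of that gene over all pools. The spots of a clone did not give the same difference between lines. From the first to the third spot it was 0.65, 0.80 and 0.42 for GAPDH, 0.41, 0.50 and 0.13 for FBP1, -0.29, -0.15 and 0.05 for ENO1, and -0.17, 0.065 and -0.23 for GYS2. GAPDH and FBP1 were above 0 in each spot, and ENO1 and GYS2 had no common sign. For GAPDH and GYS2 the spots did not cover the same pools, so their differences are not a like comparison. For FBP1 the spots covered the same pools but not the same arrays, so its differences are not a like comparison either. In fat pool 9, array 3 had FBP1 at 2.05 and 2.44 in spots 1 and 2, and no value in spot 3. Spot 3 of FBP1 in that pool rested on array 2 alone, at -0.18. The third GAPDH spot had no value in fat pool 6, and the first and second had none in fat pool 10. The first and second GYS2 spots had no value in lean pool 3, which entered the third spot alone.

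The differences of the other enzymes and carriers tested all lay between those of GYS2 and GAPDH. Of 11 further genes of glycolysis, gluconeogenesis and glycogen on the array, 9 were tested, and HK1 and GSK3A had too few pools. By gene, 0 of the 9 passed upwards and 0 downwards in the limma test, with 0 at an unadjusted p under 0.05. The log2 difference was above 0 in 3 and below 0 in 6, between -0.24 and 0.42, with a median of -0.09. Over all 110 named genes tested it was above 0 in 58 and below 0 in 52, with a median of 0.03. Of these 110 genes 0 passed upwards and 0 downwards, with 9 at an unadjusted limma p under 0.05.

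PFKL, the liver phosphofructokinase that runs the step opposite to FBP1, was -0.05 ± 0.30 in the fat pools and 0.20 ± 0.28 in the lean pools (SD, n = 5 each). Its difference of -0.24 did not pass (limma adjusted p = 0.658). PKLR, the liver pyruvate kinase, which ends glycolysis, was 0.17 ± 0.48 in 5 fat pools and -0.26 (-0.255) ± 0.67 in 3 lean pools (SD), a difference of 0.42 (limma adjusted p = 0.695). PCK2, the mitochondrial phosphoenolpyruvate carboxykinase of gluconeogenesis, had 2 clones, at 0.16 and -0.02. PYGL, the liver glycogen phosphorylase, which breaks down the polymer that GYS2 builds, was at -0.16 (limma adjusted p = 0.708). ALDOC, an aldolase, at -0.10, and GPI, glucose-6-phosphate isomerase, at -0.02, changed sign with single pools left out.

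**Figure D4:**
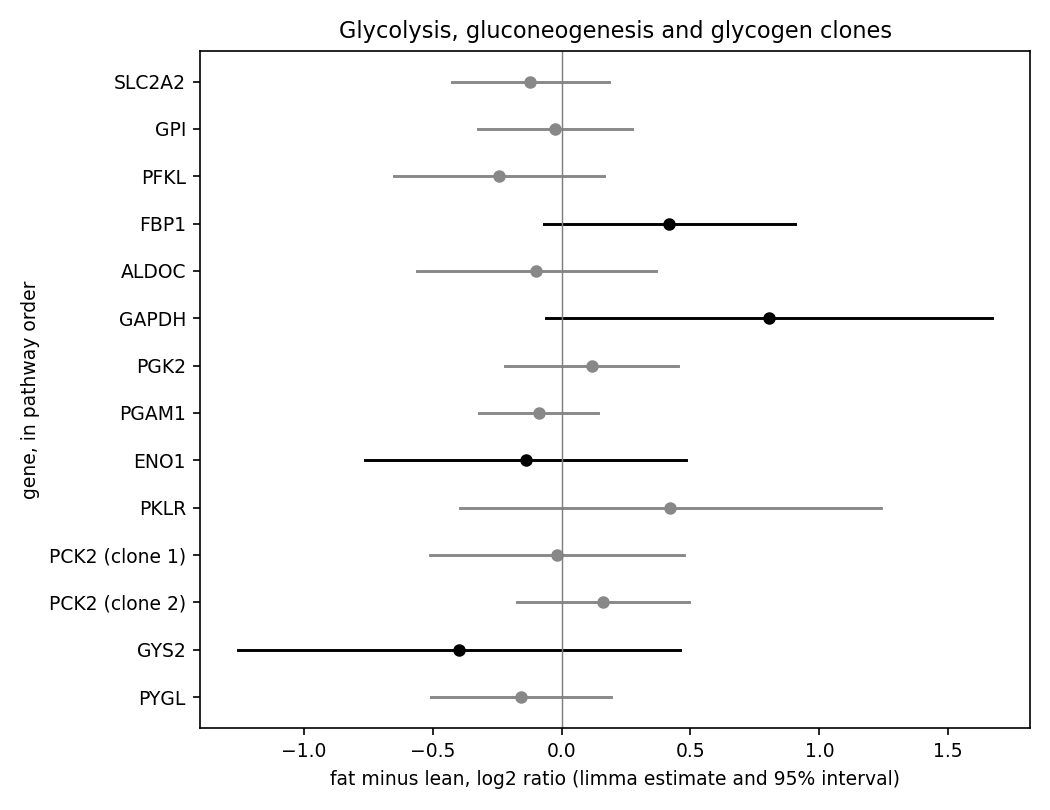
Fat minus lean difference on the log2 scale (horizontal axis) with its 95% interval from limma, for the tested clones of the pathway in pathway order (vertical axis), the 4 genes in black and the others in grey. Every interval spans 0, and that of GAPDH, from -0.06 to 1.67, and that of GYS2, from -1.26 to 0.46, are the widest among the 4 genes.

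Genes of neighbouring pathways did not pass either. Of 8 genes of pyruvate oxidation, the citrate cycle and the pentose phosphate pathway that were tested, 0 passed, 5 lay above 0 and 3 below, from -0.15 (PGD) to 0.37 (PDHA2) on the log2 scale. Of 6 regulators of glucose metabolism tested 0 passed, 4 lay above 0 and 2 below, from -1.48 (THRA) to 0.69 (PPARA), with 1 at an unadjusted limma p under 0.05. The THRA end rested on lean pool 3, where THRA had a single spot at 14.01 on 1 array. Without that pool the difference was -0.17 for THRA and 0.38 for PPARA, and SREBF1 was the highest at 0.41.

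Among all named genes with values in at least 8 shared pools, the pattern most like FBP1 over the 10 pools was that of ELOVL6, which elongates palmitate (Pearson r 0.95, Spearman rho 0.82). Next came ACACA, the acetyl-CoA carboxylase of fatty acid synthesis (r 0.79, rho 0.83), and SREBF1, a transcription factor of lipid synthesis (r 0.78, rho 0.84). These are descriptions over 101 genes compared. SREBF1 was the mean of 3 clones, which had r 0.76 and 0.42 with FBP1 over 10 pools and 0.65 over 7 pools. ELOVL6 was highest in fat pool 9, at 0.60, and lowest in lean pool 2, at -0.46, as FBP1 was. Without both of these pools r with ELOVL6 was 0.85. In fat pool 9 the 3 arrays gave ELOVL6 at 0.45, 0.87 and 0.47, whereas FBP1 was high on the third array alone. Without that array r was 0.64. With the third spot of each clone only r was 0.07, and FBP1 in fat pool 9 then rested on the second array alone, at -0.18. The other likenesses of FBP1 moved as well, to r -0.04 with SREBF1 and 0.42 with ACACA on the first array of each pool, and to 0.38 with ACACA on the second.

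For GAPDH the most similar patterns over 9 pools were those of GC, the vitamin D binding protein of plasma (r 0.91, rho 0.87), SREBF1 (r 0.76, rho 0.78) and EIF4EBP1, an inhibitor of translation initiation (r 0.62, rho 0.75). GC, the mean of 2 clones, was highest in fat pool 6, at 0.76, as GAPDH was, and r was 0.77 without fat pool 6 and lean pool 5. The 2 GC clones differed. The clone in block 11, column 6, beside the GAPDH column of the same block, had r 0.96 with GAPDH and a value of 1.52 (1.525) in fat pool 6. The clone in block 15 had r -0.34 and a value of -0.00222 there, and was highest in lean pool 3, at 0.63. The 3 clones of SREBF1 had r 0.28 and 0.46 with GAPDH over 9 pools and 0.89 over 6 pools. The clone at 0.89 had no value in lean pool 3 and fat pools 7 and 9. The 2 clones of EIF4EBP1 had r 0.42 and 0.64 with GAPDH. The r of GAPDH with SREBF1 was 0.20 with the first spot only and 0.15 with the third, and that with EIF4EBP1 was 0.37 on the second array of each pool.

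GYS2 was most like THRA, a thyroid hormone receptor (r 0.93, rho 0.16), ENO1 (r 0.83, rho 0.70) and SLC2A2, the glucose transporter of liver cells (r 0.80, rho 0.38). All of these were highest in lean pool 3, where THRA stood at 6.77 (6.765), with a single spot at 14.01 on the second array. ENO1 there was the mean of -0.90 on the first array and 2.61 on the second, while GYS2 was 1.83 and 2.12. Over the alternatives r with GYS2 ran from -0.80 to 0.98 (THRA), -0.59 to 0.95 (ENO1) and -0.30 to 0.90 (SLC2A2). Without lean pool 3 and fat pool 10 the r of GYS2 was -0.60 with THRA, 0.23 with ENO1 and -0.09 with SLC2A2, so these likenesses rested on those pools. In fat pool 10 GYS2 was -1.89 on array 1, from 1 spot, -0.15 on array 2 and 0.44 on array 3, from 1 spot. ENO1 had a value in fat pool 10 on array 3 alone, at -0.89. On that array GYS2 lay above 0 and ENO1 below it, so the low pool values of both genes did not come from the same array. For ENO1 the closest were GYS2, SREBF2, a transcription factor of cholesterol synthesis (r 0.76, rho 0.77), and THRA (r 0.74, rho 0.60). Without the same pair of pools r was 0.64 with SREBF2 and 0.35 with THRA, and without values beyond 5 it was -0.11 with THRA. With at least 2 spots per array r with SREBF2 was 0.40.

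**Figure D5:**
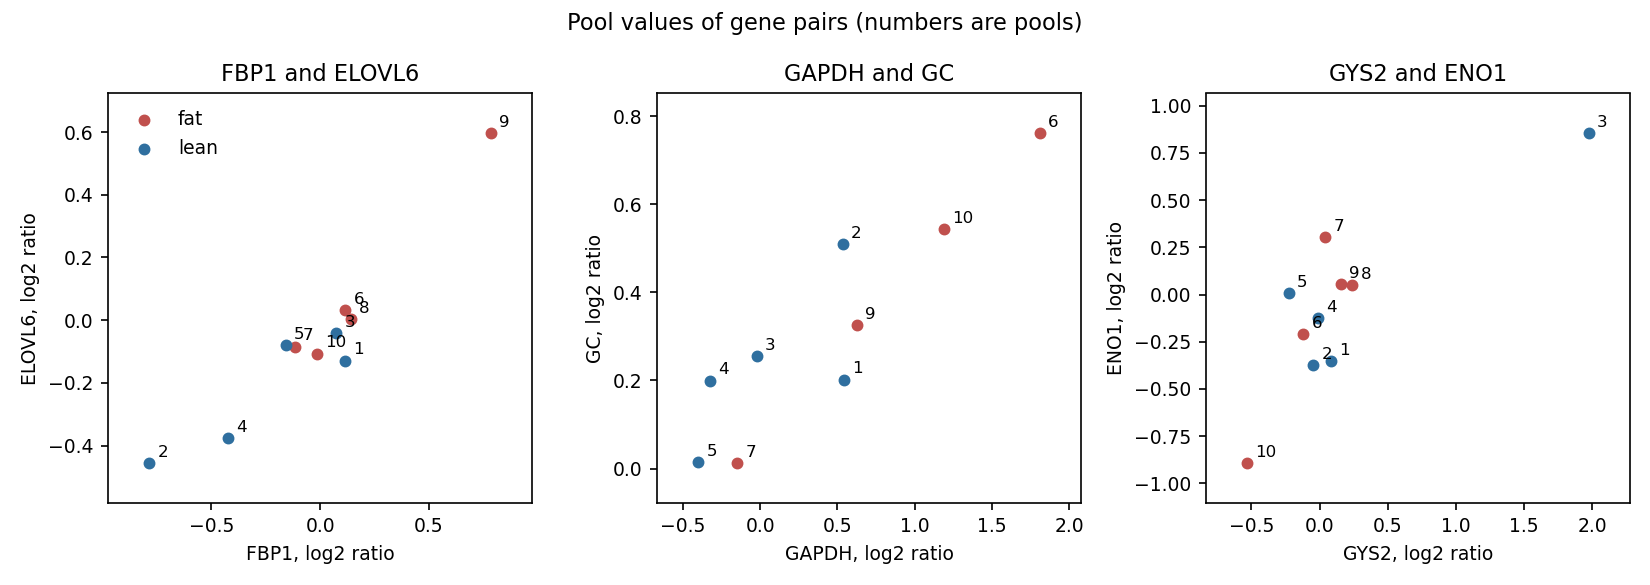
Pool values on the log2 scale of FBP1 and ELOVL6, GAPDH and GC (mean of 2 clones), and GYS2 and ENO1, with fat pools in red, lean pools in blue and the pool number beside each point. Fat pool 9 and lean pool 2 lie at the ends for FBP1 and ELOVL6, and lean pool 3 lies alone at the top right for GYS2 and ENO1. The ENO1 value of lean pool 3 is the mean of arrays at -0.90 and 2.61.

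Between the 4 genes themselves r over pools was 0.83 for ENO1 and GYS2, 0.28 for GAPDH and FBP1, 0.21 for ENO1 and FBP1, 0.17 for FBP1 and GYS2, -0.30 for GAPDH and GYS2 and -0.53 for GAPDH and ENO1. Spearman rho of these pairs, in the same order, was 0.70, 0.67, 0.30, 0.49, -0.1 and -0.47. Pairs with GAPDH had 9 pools and the others 10, and the genes of a pool share its arrays. GAPDH and ENO1, which work in the same stretch of glycolysis, lay on opposite sides of 0 in fat pool 10. That pool had the second highest GAPDH value (1.19), from a single spot, and the lowest ENO1 value (-0.89), from a different array. No array of the pool had a value for both genes.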

How the data were processed

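The authors deposited a table of ratios, read here as log2, with a single value for each spot of each array. How they scanned, corrected, filtered and normalized it is not given in the sources used here. Per the labels, 500 ng of poly(A)+ RNA from pools of 4 chickens was labelled, always Cy5 for the pool and Cy3 for the common reference, so no dyes were swapped. The log2 base was inferred from values up to 14.01. Array medians lay between -0.06 and 0.07. The lowest r between 2 arrays was -0.27. Missing values (36.7% of cells filled) stayed missing.

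Spots 3 rows apart held 1 clone (206 of 206 annotated positions). Spots were averaged, then the arrays of a pool. All 142 gene IDs matched a current chicken entry, and 0 symbols changed. No build is named, and coordinates are therefore left out.

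The 297 clones measured in 3 or more pools per line were tested with limma 3.58.1 in R 4.3.3 (two-sided moderated test, Benjamini-Hochberg, called at an adjusted p under 0.05). Pools within a line were compared over arrays by limma's F test, where each pool had 2 or more arrays with a value. P-values set the line difference against the spread between these pools. In the F test they set the pool differences against the spread between arrays. The functions were tested on simulated data. Array numbers did not pair the lines (correlations of deviations -0.02, -0.07 and -0.12). The members and lists were chosen with earlier results of these data known. Of the other pathway genes, the 4 with the smallest and 2 with the largest p were named, and the 3 genes with the highest r for each member. Alternatives covered averaging, filters, normalization, arrays as observations and each pool left out.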

Additional observations from a re-analysis of the deposited data

Results flagged for a closer look

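Among the 8 groups of pool values (4 genes in 2 lines), 2 held a pool whose gap to the nearest other pool was past the Dixon 95% value, where chance gives about 5% of groups. Over all clones with values in all 5 pools of a line, 9.06% in the fat line and 8.98% in the lean line held such a pool. GYS2 in lean pool 3 was at 1.98 (1.975), with the other lean pools between -0.23 and 0.08. FBP1 in fat pool 9 was at 0.787, with the other fat pools between -0.12 and 0.14, and was at 0.06 without the third array of that pool. ENO1 in lean pool 3, at 0.86 (0.855), fell short of the Dixon value, with a ratio of 0.689 against 0.71 for 5 pools.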

How the results depend on the processing

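GAPDH and FBP1 kept their sign and stayed short of the threshold in every alternative run, 30 for GAPDH (0.42 to 1.14) and 32 for FBP1 (0.13 to 0.55). For GAPDH no value was possible with the first array of each pool or with all 10 pools required. ENO1 turned to 0.0333 in the fit with array number as replicate block, 0.21 without the second array of pool 3 and 0.0543 with the third spot only, and ran from -0.25 to 0.0731 with single pools left out. GYS2 turned to 0.0293 with at least 2 spots and 0.065 with the second spot only, and ran from -0.54 to 0.00719 with single pools left out. Under the block GAPDH was 0.46, FBP1 0.44 and GYS2 -0.39. The GYS2 call among lean pools had adjusted p-values from 0.00326 to 0.839 with single pools left out (the highest without pool 3). Clones called between lines numbered 5 with arrays as observations and the correlation within pools (0.173). They numbered 8 with arrays as independent observations and 8 under the block, fits that count arrays of the same RNA as separate samples. None of the clones called was one of the 4 genes. Clones called between fat pools numbered 2 under the block, with at least 2 spots, on every array and with the first spot, 1 with centring, 7 without the third array of pool 9, 4 without that of pool 7, and 0 to 2 with single pools left out. Between lean pools they numbered 2 without values beyond 5 or the first array of pool 2, and 0 to 3 with single pools left out. They numbered 0 with at least 2 spots, on every array or from any 1 spot number. Without the second array of pool 3 that pool kept 1 array, so calls of the F test are not given for that alternative. Of the other pathway genes, GPI turned to 0.0193 with medians over spots, 0.004 and 0.007 with the first and second array, 0.0567 without the second array of pool 3 and 0.0957 with the first spot, and ran from -0.11 to 0.0306 with single pools left out. ALDOC turned to 0.00975 with the second array and 0.0493 with the second spot, and ran from -0.17 to 0.0705. PCK2 turned to -0.00733 with the first array and -0.12 with the first spot, PFKL to 0.0103 with the first spot and PYGL to 0.18 with the second. The cause was not tested. Single spots, the arrays left out from pools 2, 7 and 9, single clones of a gene, and the spread and regulators without lean pool 3 were chosen after seeing the data. Ratios carry no signal over background, so what depth limits cannot be given.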
